A study of Gallus gallus with 3 samples.

Results

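The genes described here move zinc and copper across membranes, hand copper between proteins or sense zinc. They were measured by RNA sequencing in mucosa of the jejunum of Leuang Hang Kao breeder hens, which the study calls heat-adapted. Members were chosen by symbol: SLC30A or SLC39A followed by a number, MT followed by a single digit, and 10 named genes of copper handling and metal sensing. The rule found 26 of the 15675 genes with values, namely 7 SLC30 genes, 11 SLC39 genes, 7 copper genes and the transcription factor MTF1. Of the 10 named genes, ATP7A and CCS were not found. Neither was any symbol of the form MT and a digit, nor SLC30A1, SLC30A2, SLC30A3, SLC39A2, SLC39A4 or SLC39A7. These genes were not analysed here. One row is named MT4L, which the RefSeq gene table lists as another name of the metallothionein gene MT4. It lies outside the rule and is described beside the members without being counted among them.

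The study set 28-week-old hens caged singly at 23 °C against hens held at 36 °C for 6 h. Only the arm at 23 °C was analysed here, as 3 libraries called pools 1, 2 and 3, each made from the combined RNA of 4 hens. There is therefore no contrast of conditions, and the spread given is that between pools of hens in a single group. Levels are FPKM, read fragments scaled to transcript length and library size, as mean ± SD over the pools (n = 3). The sequencing depth is unknown, so values near or under 1 FPKM are the least precise.

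In animals, zinc enters the cytosol through the SLC39 or ZIP proteins, from outside the cell or from internal stores, and leaves it through the SLC30 or ZnT proteins, to the outside or into vesicles and organelles. Some members of both families carry manganese instead of, or as well as, zinc. Copper enters cells through SLC31A1 and is passed by small chaperones to ATPases that export it, to superoxide dismutase and to the mitochondrion for cytochrome c oxidase. Metallothioneins bind both metals, and MTF1 switches their genes on when zinc is high. The roles named below are known mainly from human and mouse work.

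The tissue label was matched by epithelial markers. Enterocyte markers, measured for 11 of 12 genes, had medians of 1257.10, 817.09 and 683.99 FPKM in pools 1, 2 and 3, while 1 of 8 measured exocrine pancreas markers reached a mean of 1 FPKM. That mean was also reached by 3 of 5 measured endocrine pancreas markers and by 2 of 3 measured red blood cell markers. Levels of markers of the tissue below the epithelium also differed between pools. Medians of the 10 smooth muscle markers were 14.73, 32.56 and 58.14 FPKM, and those of the 10 fibroblast and stroma markers 20.99, 38.13 and 58.59. In bulk RNA, fewer cells of a type and less RNA per cell cannot be told apart.

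Most of the zinc and copper genes were expressed. A mean of at least 1 FPKM was reached by 23 of 26 members, against 73.8% of all genes, and these 23 were also at or above 1 FPKM in every pool, against 70.3% of all genes. Levels spanned from 484 ± 59.9 FPKM for the copper chaperone ATOX1 to 0.00667 ± 0.0115 for SLC39A12. The median over all 26 members was 11.0 FPKM, beside 6.64 over all 15675 genes. The 3 members with the highest means were ATOX1, COX17 and SLC30A10, which lay at percentiles 98.3, 97.3 and 94.2 of all genes. Of these, 2 carry copper inside the cell and 1 is a manganese exporter.

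**Figure D1:**
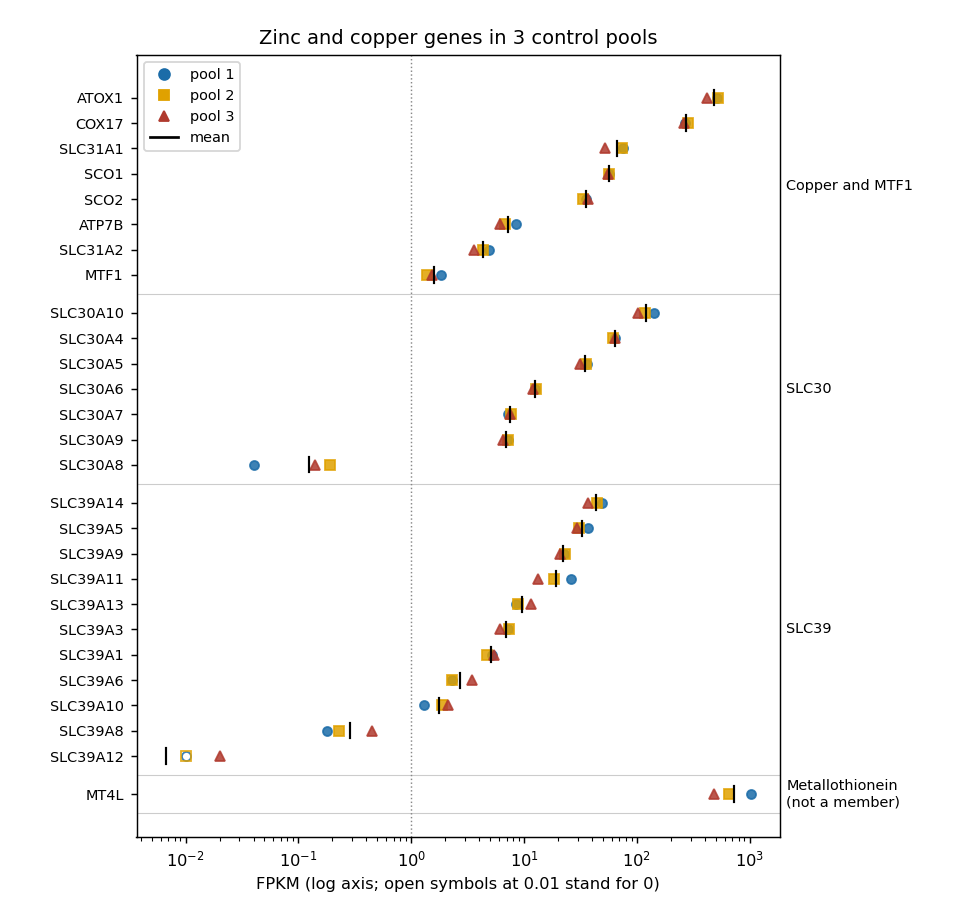
FPKM of each member in pools 1 (circles), 2 (squares) and 3 (triangles), on a log axis, with a bar at the mean over the pools. Copper genes and MTF1 are at the top, then the SLC30 and SLC39 families, then MT4L, which is no member; the dotted line marks 1 FPKM. The members span from ATOX1 at 484 ± 59.9 FPKM to SLC39A12, which is listed at 0 in 2 of 3 pools, and for most genes the pools lie close together.

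Of the copper uptake genes, SLC31A1, the high-affinity importer of the plasma membrane, had the higher transcript level. It was at 74.93, 73.66 and 52.18 FPKM in pools 1, 2 and 3. Pool 3 was the low sample, with the other two close together. Its relative SLC31A2, which lies mainly on internal vesicles, was at 4.90, 4.37 and 3.59 FPKM. The values of the 2 genes did not overlap, and SLC31A1 was 15.6 ± 1.18 times as high as SLC31A2 within pools.

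ATOX1, which delivers cytosolic copper to the exporting ATPases, was the most abundant member. It was at 516.20, 521.00 and 414.87 FPKM, lowest in pool 3. Its recipient ATP7B, the ATPase that secretes copper and supplies copper enzymes in the liver, was at 8.44, 6.80 and 6.17 FPKM. ATP7B stood at percentile 51.5 of all genes, close to the middle of the table, and ATOX1 was 68.3 ± 7.79 times as high. The intestinal exporter of mammals, ATP7A, was not analysed here, so the level of its transcript beside ATP7B is not known from these values. The ratio of ATOX1 to ATP7B was chosen after the values were seen.

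The genes that bring copper to cytochrome c oxidase differed little between pools in the deposited values. COX17, the small chaperone of the mitochondrial intermembrane space, was at 268.94, 282.11 and 263.71 FPKM. SCO1 was at 57.23, 56.26 and 56.00 FPKM, and SCO2 at 35.11, 33.44 and 37.02. SCO1 and SCO2 are the membrane-bound proteins that receive copper from COX17 and insert it into a subunit of the oxidase. The SD of SCO1 was 1.15% of its mean, the smallest among the 26 members as deposited. Rescaling the pools by the median ratio of all genes put COX17 at 286.6, 281.1 and 245.9 rescaled FPKM. It put SCO1 at 60.98, 56.05 and 52.22, and SCO2 at 37.41, 33.32 and 34.52. Within pools, COX17 was 4.81 ± 0.179 times SCO1, and SCO1 was 1.61 ± 0.0869 times SCO2. The order COX17, SCO1, SCO2 held in all 3 pools with no overlap of values.

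Among the SLC30 genes, SLC30A10 led in every pool. This transporter exports manganese across the cell surface in mammals. It was at 143.21, 118.85 and 101.58 FPKM, highest in pool 1 and lowest in pool 3, and held 49.0% ± 3.73 of the summed FPKM of the 7 SLC30 genes. SLC30A4, which loads zinc into vesicles, was next at 64.27, 62.00 and 63.90 FPKM, with all 3 pools within 1.04 times of each other. Its share of the family was 25.9% ± 2.48. SLC30A10 exceeded SLC30A4 by 2.23, 1.92 and 1.59 times in pools 1, 2 and 3, a ratio chosen after the values were seen.

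SLC30A5, SLC30A6 and SLC30A7 supply zinc to enzymes made in the secretory pathway, such as alkaline phosphatases, SLC30A5 and SLC30A6 as a joint complex. SLC30A5 was at 36.16, 35.45 and 31.60 FPKM. Its partner SLC30A6 was at 12.54, 12.83 and 12.05, and SLC30A7 at 7.15, 7.74 and 7.45. The 3 genes were in the same order in every pool, and their values did not overlap. SLC30A5 was 2.76 ± 0.131 times SLC30A6 and 4.63 ± 0.410 times SLC30A7 within pools, so the transcripts of the complex were not in equal amounts per length.

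The last SLC30 genes were of low to middling level. SLC30A9, which moves zinc out of mitochondria, was at 7.19, 7.20 and 6.56 FPKM. SLC30A8, the transporter that fills insulin granules with zinc in mammalian beta cells, was at 0.04, 0.19 and 0.14. SLC30A8 stood at percentile 11.6 of all genes, among those hardly detected.

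The leading SLC39 gene held a smaller share of its family than SLC30A10 did of its own. SLC39A14, which imports zinc, iron and manganese in mammals, was at 48.89, 44.51 and 37.28 FPKM. It held 30.2% ± 1.42 of the summed FPKM of the 11 SLC39 genes. Its symbol had no match in the RefSeq gene table, so its identity rests on the deposited name. SLC39A5, placed on the basolateral side of mouse enterocytes, was at 36.84, 30.99 and 29.70 FPKM and held 22.6% ± 0.722. In both genes pool 1 was highest and pool 3 lowest, and each SLC39A14 value lay above all 3 of SLC39A5. SLC39A14, SLC39A5 and SLC39A9, the first 3 of the 11, together held 68.3% ± 0.892. The first 3 of the 7 SLC30 genes held 89.0% ± 0.958. The families differ in number of genes and each lacks genes that were not found. Shares of the 2 families are therefore not like for like, and no difference in evenness is read from them. Both family leaders are manganese carriers in mammals, and SLC30A10 was 2.93, 2.67 and 2.73 times SLC39A14 in pools 1, 2 and 3, a ratio also chosen after the values were seen.

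**Figure D2:**
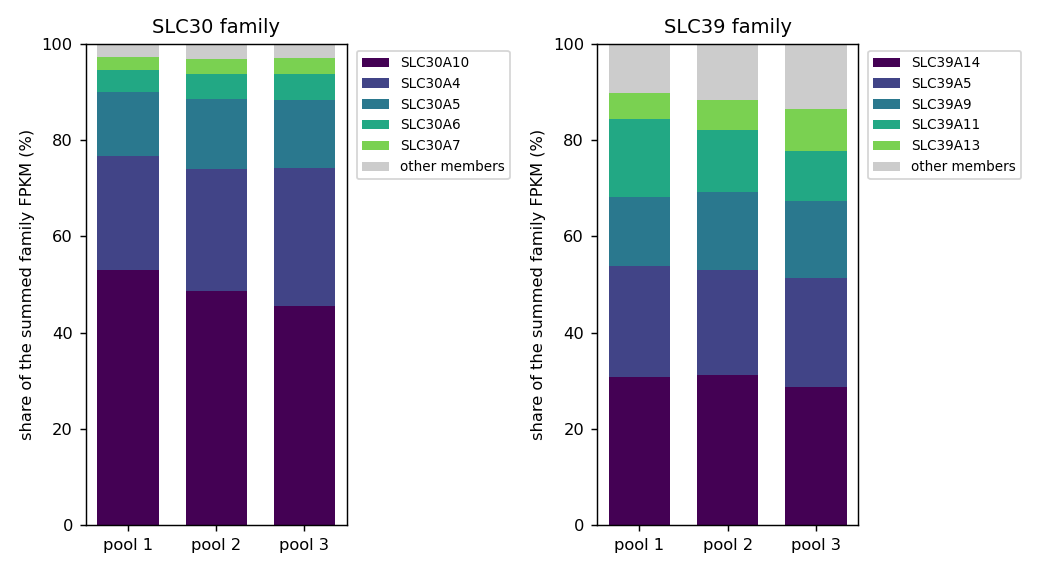
Share of each gene in the summed FPKM of its family, in percent, for the SLC30 genes (left) and the SLC39 genes (right), with a stacked bar for each pool and the members below the first 5 joined in grey. SLC30A10 holds 52.9%, 48.7% and 45.5% of its family in pools 1, 2 and 3, and SLC39A14 30.7%, 31.3% and 28.6% of its own.

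SLC39A9 and SLC39A11, proteins placed in the Golgi among other membranes, came next in the family. SLC39A9 was at 22.76, 23.01 and 20.91 FPKM. SLC39A11 was at 25.89, 18.43 and 13.38, the widest spread of any member averaging 1 FPKM or more, with an SD of 32.7% of its mean. Pool 1 was high and pool 3 low. SLC39A11 was above SLC39A9 in pool 1 and below it in the other pools, so their order was not fixed.

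SLC39A13, which releases zinc from Golgi vesicles and is needed for connective tissue in humans and mice, was at 8.50, 8.90 and 11.47 FPKM, with pool 3 high. SLC39A3 and SLC39A1, zinc importers of the plasma membrane in mammals, were at 7.16, 7.41 and 6.18 FPKM and at 5.23, 4.70 and 5.42 FPKM. SLC39A1 was below SLC39A3 in each pool, with a difference of -0.37 ± 0.20 in log2(FPKM + 1).

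SLC39A6 and SLC39A10, which form a joint complex at the plasma membrane, were low. SLC39A6 was at 2.28, 2.31 and 3.45 FPKM and SLC39A10 at 1.30, 1.88 and 2.12. Both were highest in pool 3, and SLC39A6 exceeded SLC39A10 by 0.41 ± 0.18 in log2(FPKM + 1). SLC39A8, the closest relative of SLC39A14 and also a carrier of zinc and manganese, was at 0.18, 0.23 and 0.45 FPKM. It was below SLC39A14 in every pool, with a difference of -5.11 ± 0.35 in log2(FPKM + 1). SLC39A12, known mostly from brain, was listed at 0 in pools 1 and 2 and at 0.02 FPKM in pool 3.

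MTF1, the zinc-sensing transcription factor, was at 1.84, 1.39 and 1.52 FPKM, at percentile 30.5 of all genes. The metallothionein row MT4L was at 1022.81, 655.14 and 483.73 FPKM, and its mean of 721 ± 275 FPKM was above that of every member, at percentile 98.7. Pool 1 was high and pool 3 low in MT4L. In MTF1, pool 1 was high and pool 2 low.

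Of the 14 pairs of related genes listed for comparison, 8 had both genes measured, and in all 8 the same gene was higher in each of the 3 pools. The exact two-sided sign-flip permutation test gave p = 0.25 for each, the smallest p that 3 pools allow, and adjusting over the 8 pairs by Benjamini-Hochberg left it at 0.25, so no pair could pass a threshold. In the order of all 26 mean levels, 10 of 25 neighbouring pairs had overlapping pool values, while 17 of 25 stood in the same order within every pool. The overlapping pairs were SLC31A1 and SLC30A4, then SCO2 with SLC30A5 and SLC30A5 with SLC39A5, then SLC39A9 and SLC39A11. The run of SLC30A7, ATP7B, SLC30A9 and SLC39A3 gave another 3, and SLC39A1 with SLC31A2, SLC39A10 with MTF1, and SLC39A8 with SLC30A8 gave the last 3. Of the 10, SLC39A1 was above SLC31A2, and SLC39A8 above SLC30A8, within each pool, and the other 8 changed order between pools. Of the 8 pairs listed and measured, 5 had a mean difference of more than 1 in log2(FPKM + 1), which leaves little room for a change of order. Neither these pairs nor the 25 neighbours were set against pairs of other genes, so nothing is read from the counts.

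The median spread of the members between pools was below that of all genes as deposited, and near it after rescaling by the median ratio. None of the 23 members averaging 1 FPKM or more had a difference between its highest and lowest pool of more than 1 in log2(FPKM + 1), a size reached by 7.06% of all genes, and nothing is read from that count. The median range of the 23 members was 0.25 and that of all genes 0.33 on this scale, or 0.32 and 0.33 after rescaling by the median ratio of all genes. The widest were SLC39A11 with a range of 0.90, SLC31A1 with 0.51 and SLC30A10 with 0.49, and the narrowest were SCO1 with 0.03 and SLC30A4 with 0.05. In the deposited values MT4L had a range of 1.08, and its range after rescaling was not computed. Under the median ratio scaling, SLC39A11 had a range of 1.08, and SCO1 and SLC30A4 had ranges of 0.22 and 0.20.

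**Figure D3:**
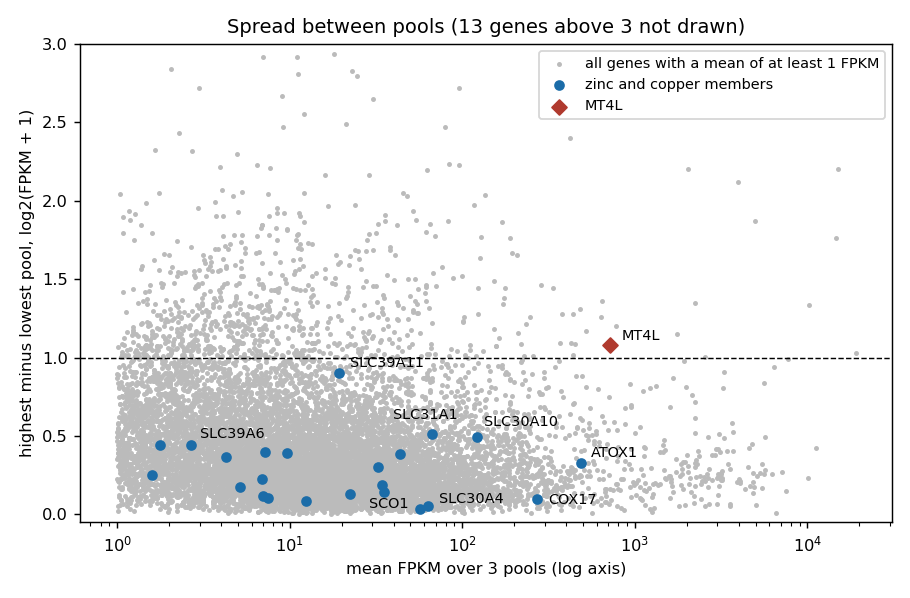
Difference between the highest and the lowest pool in log2(FPKM + 1) against mean FPKM on a log axis, for each gene averaging 1 FPKM or more (grey), the 23 members among them (blue) and MT4L (red diamond). The dashed line marks a difference of 1; the members lie below it, with SLC39A11 nearest at 0.90, and MT4L lies above it at 1.08.

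More of the members were lowest in pool 3 than in the other pools. Pool 3 was the lowest for 15 of 23 members, against 27.6% of all genes, and the highest for 5, against 52.0% of all genes. Pool 1 was the highest for 11 of 23, against 24.7% of all genes, and the lowest for 4, against 51.3% of all genes. Values stood in the order pool 1 above pool 2 above pool 3 for 9 of 23 members, against 16.8% of all genes. These 9 were SLC30A10, SLC30A5, SLC39A14, SLC39A5, SLC39A11, SLC31A1, SLC31A2, ATP7B and SCO1. Rescaling the pools to an equal sum gave this order to 10 members, against 16.6% of all genes. SCO1 then lost it, and SLC30A9 and ATOX1 gained it. The reverse order was found for 3 of 23, against 39.0% of all genes, and these were SLC39A13, SLC39A6 and SLC39A10. Pool numbers are only names, and the order describes these libraries. Both orders were counted because markers of enterocytes, and of muscle and stroma, had shown them in earlier results of these data. A match with those marker lists is therefore no separate finding.

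The shift of a gene in a pool is its log2(FPKM + 1) there minus the mean of the other pools. The median shift of the members was 0.06, 0.05 and -0.12 in pools 1, 2 and 3, beside -0.10, 0.01 and 0.10 over all genes. The median ratio scaling moved pool 1 by 0.09 and pool 3 by -0.10 on the log2 scale. It made pool 3 the lowest for 17 of 23 members and 42.8% of all genes, and pool 1 the highest for 19 of 23 and 41.9%. It gave the order pool 1 above pool 2 above pool 3 to 16 of 23 members and to 30.7% of all genes, and it reversed the order of pools 1 and 3 in SLC39A1, SLC30A7 and SCO2. Under it SLC39A10 alone kept the reverse order, while SLC39A6 and SLC39A13 were still higher in pool 3 than in pool 1, at 3.22 against 2.43 and at 10.7 against 9.06 rescaled FPKM.

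Marker lists also shifted between pools, and they did not all go the same way. Enterocyte markers had median shifts of 0.54, 0.33 and -0.92 in pools 1, 2 and 3, in the direction of most members. Smooth muscle markers had -1.39, 0.15 and 1.27, and fibroblast and stroma markers -1.15, 0.04 and 1.15. All 10 of each list were highest in pool 3, as were 5 of 23 members and 52.0% of all genes. Crypt and proliferating markers, for 8 of 9 genes, had -0.83, 0.24 and 0.53. Goblet markers had 0.09, 0.03 and -0.34, and enteroendocrine markers 0.06, 0.32 and -0.29. In pools 1 and 3, endothelial markers had -1.01 and 0.95, and B and plasma cell markers -0.37 and 0.43. T and NK lymphocyte markers had -0.47 and 0.37 there, and macrophage and dendritic markers -0.36 and 0.34. The part of these differences between pools in the member values was not tested.

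**Figure D4:**
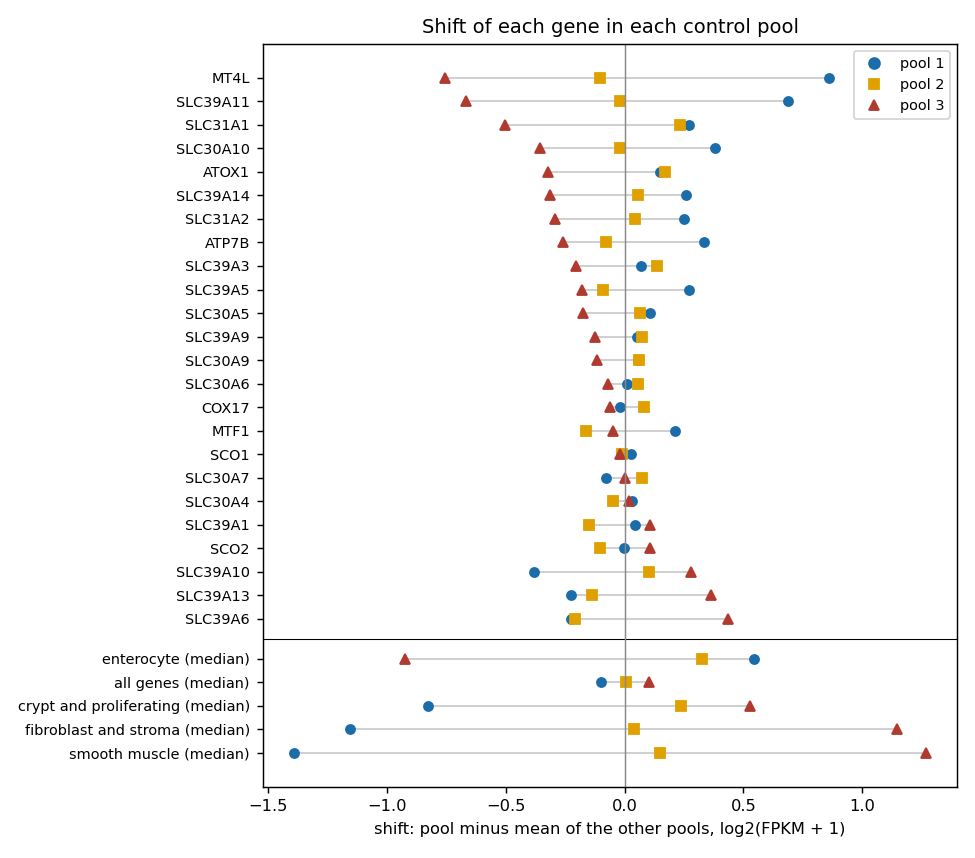
Shift of each gene in pools 1 (circles), 2 (squares) and 3 (triangles), as log2(FPKM + 1) in that pool minus the mean of the other pools, for the 23 members averaging 1 FPKM or more and MT4L, sorted by their shift in pool 3. Below the line are the medians of 4 marker lists and of all genes. Pool 3 lies lowest for 15 of 23 members and for the enterocyte median at -0.92, and highest for the smooth muscle median at 1.27.

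Levels were also set against VIL1, the villin that builds the brush border. VIL1 was at 687.05, 656.85 and 507.56 FPKM, so it was itself in the order pool 1 above pool 2 above pool 3, and dividing by it takes that order from many genes. Of the 9 members in that order 8 lost it, near the 82.0% of all 1943 other genes in it, and nothing is read from the count. SLC30A10 was at 20.8, 18.1 and 20.0 FPKM for each 100 FPKM of VIL1, SLC31A1 at 10.9, 11.2 and 10.3, and SLC39A14 at 7.12, 6.78 and 7.35. The exception among the 9 was SLC39A11, at 3.77, 2.81 and 2.64 for each 100 FPKM of VIL1, which was still 1.43 times as high in pool 1 as in pool 3. MT4L kept its order as well, at 148.9, 99.7 and 95.3. SLC30A4 went from 9.35 in pool 1 to 12.6 in pool 3 on this measure, and SCO1 from 8.33 to 11.0. VIL1 was chosen for this after the values were seen, and other enterocyte genes, such as APOA4 with a log2 range of 2.20, differed more between pools.

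Enzymes that need copper were of very different levels. Of 16 listed, 14 were measured and 12 averaged 1 FPKM or more, with a median over the 14 of 4.19 FPKM. SOD1, the copper and zinc superoxide dismutase of the cytosol, was at 545.72, 502.54 and 412.17 FPKM. AOC1, the diamine oxidase that degrades histamine in the gut, was at 58.77, 48.01 and 31.89, and HEPH, the copper ferroxidase that helps iron leave the enterocyte, at 40.66, 26.30 and 25.47. In these 3 genes pool 1 was highest and pool 3 lowest. PAM, which amidates peptide hormones, was at 15.46, 15.79 and 17.00 FPKM, and SOD3, the extracellular superoxide dismutase, at 7.66, 10.81 and 24.13, with a log2 range of 1.54. Of the 12, 8 were highest in pool 3, against 52.0% of all genes, or 7 against 36.1% after the median ratio scaling. A range over 1 was found for 2 of the 12, SOD3 and MOXD1, against 7.06% of all genes. MOXD1 averaged only 1.51 FPKM.

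Of 20 listed accessory genes of copper assembly and trafficking, 18 were measured and 16 averaged 1 FPKM or more. None of the 16 had a range over 1, near the 7.06% of all genes, and their median range was 0.22. SLC25A3, a mitochondrial phosphate carrier that also brings copper into the matrix, was at 722.90, 757.18 and 677.19 FPKM. COA7, an assembly factor of the respiratory chain, was at 171.18, 161.61 and 127.29, and COMMD1, which takes part in ATP7B trafficking, at 126.53, 90.84 and 103.75. MEMO1 was at 66.2 ± 7.21 FPKM. STEAP3, a metalloreductase, had the widest range of those averaging 5 FPKM or more, at 0.51, with 5.86, 7.75 and 8.79 FPKM.

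The list of zinc sensing and other zinc transport was small, with 7 of 10 genes measured. None of the 7 had a range over 1, near the 7.06% of all genes. GPR39, a receptor that responds to zinc, was at 23.66, 26.50 and 21.63 FPKM. CBWD1, of a family of proteins that deliver zinc to enzymes, was at 18.73, 18.36 and 19.32. TMEM163, a zinc transporter of vesicles, was at 9.57, 11.82 and 8.07. CREM and MTF2, transcriptional regulators on the same list, were at 40.5 ± 3.35 and 9.57 ± 2.50 FPKM.

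Several zinc enzymes of the gut had a wide range between pools. All 20 listed were measured, 19 averaged 1 FPKM or more, and 6 of 19 had a range over 1, against 7.06% of all genes. After the median ratio scaling it was 7 of 19, against 6.33% of all genes. The surface aminopeptidase ANPEP was at 727.55, 754.44 and 564.20 FPKM, the adenosine deaminase ADA at 459.99, 454.05 and 323.79, and the dipeptidase DPEP1 at 168.19, 168.64 and 92.50. The meprin subunit MEP1A was at 170.37, 164.10 and 49.30. Of those averaging 5 FPKM or more, the widest ranges were those of the carboxypeptidase CPO, at 37.63, 55.11 and 14.33 FPKM, and of the carbonic anhydrase CA7, at 114.63, 60.26 and 32.79. Pool 3 was the lowest for 16 of the 19, these 6 named enzymes among them, against 27.6% of all genes. After the median ratio scaling it was 16 of 19 against 42.8%. In the deposited values CA4, SORD and ALPI were lowest in pool 2, and CA4 was highest in pool 3. The list's median shifts were 0.26, 0.23 and -0.49, beside 0.54, 0.33 and -0.92 for the enterocyte markers, which include ANPEP.

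The 10 listed redox and stress genes were all measured. None of the 10 had a range over 1, or 1 of them after the median ratio scaling, near the 7.06% and 6.33% of all genes. TXN, the thioredoxin, was at 882.08, 841.79 and 1053.34 FPKM, and its inhibitor TXNIP at 157.63, 143.20 and 144.79. The glutathione reductase GSR was at 132.98, 122.79 and 117.01, and the antioxidant transcription factor NFE2L2 at 63.27, 78.16 and 70.13. HMOX1, the haem oxygenase and a target of metal and oxidant stress in other species, had the widest range, 0.99, with 57.09, 53.89 and 28.18 FPKM. GCLM, the modifier subunit of the enzyme that starts glutathione synthesis, followed with 24.63, 27.66 and 21.84.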

How the data were processed

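Per the submitters' processing notes, cutadapt 1.9.1, HISAT2 2.0.1, HTSeq 0.6.1, DESeq2 and the build GRCg6a were used, with no role or order stated. The authors deposited FPKM to 2 decimals, used here as deposited for all 15675 genes with values. The authors also deposited estimated counts, which did not follow FPKM across genes (Pearson's r of 0.00904, 0.00634 and 0.00463), so that SCO2 had a count of 0 in each pool, and they gave no value here. Whether counting used strand is not given, and relatives can share reads. Another 6 columns, which the labels tie to none of these samples, were left out. Values were transformed as log2(FPKM + 1), and counts of members use those averaging 1 FPKM or more (11570 genes). Of 26 members, 24 matched the RefSeq gene table of assembly GRCg7b by symbol, and no coordinate was taken from it. SLC39A1 and SLC39A14 did not match, so what is said of them rests on the deposited symbol alone. The members and lists were chosen with earlier results of these data known. Named were all members and, of each pathway list, the 4 genes of highest mean and the 2 of widest range with a mean of at least 5 FPKM. Calls of range and order, and the shift, were run on simulated data with less noise than the pools had and with large planted changes. This checked the code and gives no rate of false calls for these data. Alternatives were a pseudocount of 0.1, no minimum or a minimum of 5 FPKM, a range over 0.5, 2 rescalings, and each pool left out. The labels do not say that pools differ by anything but hens. The versions used were SciPy 1.17.1, pandas 2.3.3, numpy 2.4.6 and matplotlib 3.10.9, under Python 3.11.15.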

Additional observations from a re-analysis of the deposited data

How the results depend on the processing

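No contrast of conditions, paired or not, was possible because all 3 pools belong to 1 group. The number of members averaging 1 FPKM or more was 23 without each pool, 19 at a minimum of 5 FPKM and 26 with no minimum. Members with a wide range between pools numbered 0 in the text, against 7.06% of all genes, and 1 after rescaling by the median ratio, against 6.33%. At a range over 0.5 they numbered 2, where 29.8% of all genes lay. Leaving out a pool can only lower this count. Members in the order pool 1 above 2 above 3 numbered 9, against 16.8% of all genes, and 16 after the median ratio, against 30.7%. Without a pool, the order of the other two was the same for 13 to 17 members, against 35.5% to 39.6% of all genes. The reverse order was held by 3 members, against 39.0% of all genes. It was held by 1 at a minimum of 5 FPKM, against 34.6%, and by 1 after the median ratio, against 25.2%. Without a pool it was held by 6 to 10, against 60.2% to 64.3% of all genes, where only 2 pools must be in order. The median shift in pool 1 was 0.06, 0.19 after the median ratio, where that of all genes was 0.03, and in pool 3 -0.12 and -0.24. The alternatives could hardly change the pair directions, which were the same in every pool, or move a mean FPKM past its SD, so they say nothing of the stability of either. A pseudocount and a minimum do not act on a mean FPKM, and rescaling does not act on a share within a family. Depth is unknown, so counting error at low FPKM could not be given.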
